A study of Homo sapiens with 12 samples.

Results

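SKOV3/DDP is a cisplatin-resistant line developed from SKOV3, an established human line of epithelial ovarian cancer that the labels describe as cisplatin-sensitive. Paeonol (PAE), a phenolic compound of peony root bark, was given to both lines, and RNA sequencing compared the resistant with the sensitive cells when both had received it. The comparison takes 6 of the 12 libraries of the series, 3 of SKOV3/DDP with PAE (SKOV3/DDP_PAE) and 3 of SKOV3 with PAE (SKOV3_PAE), chosen by their labels and not by any measured value. All 6 carry the PAE treatment, so within them a difference between the lines and a response to PAE that differs between the lines cannot be told apart. The labels give no dose, time or batch. The headings of the count columns carry a different number before the letter P in each line, which the labels do not explain, so the line and any difference in dose cannot be told apart. The resistant cells are 1 stable line, and the labels do not say that the 3 libraries of a group came from separate cultures. The study's methods speak of independent biological experiments in general and not of these libraries, so the p-values measure the spread between these libraries, which may be technical. Each library was made from poly-A RNA, and the deposited values are raw counts for each gene.

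Cisplatin forms crosslinks in DNA. Cells are known to resist it by exporting or binding the drug, by repairing or tolerating the crosslinks, and by not entering apoptosis after damage. DNA damage induces genes that stop the cell cycle, such as CDKN1A, and genes that start apoptosis, such as BBC3. De novo purine synthesis builds the bases that dividing cells need for DNA and RNA, and MYC is known to drive several of its enzymes.

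The 6 libraries held between 14610008 and 17456185 counts, and between 21469 and 23194 genes had a count in a library. CPM below are counts in a library relative to its total, scaled by TMM normalization. Mitochondrial genes took 1.82% to 2.44% of the counts in SKOV3_PAE and 3.93% to 8.67% in SKOV3/DDP_PAE, and the mitochondrial ribosomal RNAs 0.195% to 0.266% in the first and up to 4.35% in the second. The part of this difference in the results was not tested. Ranked over genes, the libraries of a group correlated at a Spearman coefficient of 0.950 to 0.983, and libraries of different groups at 0.682 to 0.726. The first principal component held 85.7% of the variance and separated the lines, and the second set SKOV3/DDP_PAE replicate 3 apart from its group.

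The labelled line was checked against genes it is known for. SKOV3 is generally described with an amplified ERBB2, a receptor tyrosine kinase, and without CDKN2A, the inhibitor p16 of the cyclin-dependent kinases. ERBB2 was at 56.6, 107 and 83.02 CPM in SKOV3_PAE, which per kilobase of gene model (12.9 CPM per kb) put it at the 70.9th percentile of the genes tested, and at 36.6, 29.2 and 47.2 CPM in SKOV3/DDP_PAE (5.90 CPM per kb, the 55.6th percentile). CDKN2A was at 228, 255 and 236 CPM in SKOV3_PAE, the 92.1st percentile per kilobase, and had 3 counts in all in SKOV3/DDP_PAE. So the SKOV3_PAE libraries expressed CDKN2A in each of the 3 and did not hold ERBB2 among their most abundant messages, against what the line is known for. Groups are therefore named throughout by their labels only. Of 23 markers of leukocytes, endothelium, stroma, red cells and neurons, 17 were too low to be tested, and MS4A1, CDH5, KDR and HBB were among those with no count in any of the 6 libraries. The 6 tested markers summed to 62.5 to 103 CPM in SKOV3_PAE and 55.8 to 67.0 CPM in SKOV3/DDP_PAE. Of these, CD68 was higher in SKOV3/DDP_PAE and the other 5 were lower. In bulk RNA, fewer cells with a message and less of it per cell cannot be told apart.

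Of 15965 named genes tested, 8809 (55.2%) passed an adjusted p of 0.05. Every adjusted p below comes from the quasi-likelihood test of edgeR, adjusted by Benjamini-Hochberg over all genes tested. Higher in SKOV3/DDP_PAE were 4179 genes (26.2%) and lower were 4630 (29.0%). The libraries of the groups did not overlap for 9865 genes (61.8%). Over all tested genes the log2 fold change had a median of −0.01, with a 5th percentile of −5.92 and a 95th of 3.24. These are the values against which the gene groups below should be read. The study's methods ask for a p under 0.05 and a log2 fold change beyond 2 in either direction, without saying whether the p was adjusted. Here the p was taken unadjusted, and 3697 genes met both (23.2%), with 1506 higher (9.43%) and 2191 lower (13.7%). For a single gene, an exact permutation test of 3 libraries against 3 cannot go below a p of 0.1, so no such p is given. Log2 fold changes are SKOV3/DDP_PAE minus SKOV3_PAE throughout.

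Some genes were present in only 1 of the lines at this depth. Of the genes tested, 201 had no count in any SKOV3_PAE library, 58 of them at a mean of at least 10 CPM in SKOV3/DDP_PAE. The reverse held for 425 genes, 141 of them at a mean of at least 10 CPM in SKOV3_PAE. Against a floor of 3 counts over the group, MAGED1, an adaptor of the MAGE family, was at least 2604-fold higher in SKOV3/DDP_PAE, with 167, 165 and 169 CPM and no count in SKOV3_PAE. BMP4, a bone morphogenetic protein, was at 155, 173 and 112 CPM and at least 2299.5-fold higher. STK11, the kinase LKB1, was at 113, 95.9 and 77.5 CPM and at least 1495-fold higher, with no count in SKOV3_PAE. The metallothionein MT1E was at least 1686-fold higher and the secreted protease KLK6 at least 2269-fold higher. PLCB4, ZNF320, EPDR1, ENPP4, LRIF1, USH1C and SLC46A3 completed the 12 genes with the largest fold change upward, each with no count in SKOV3_PAE. Reads of the MT1 genes can be shared among near-identical copies, so the value of MT1E is uncertain to that extent.

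In the other direction stood PTGS2, the inducible cyclooxygenase, at 1974, 3225 and 879 CPM in SKOV3_PAE and without a count in SKOV3/DDP_PAE, at least 33694-fold lower. SPINK6, a protease inhibitor, was at 525, 817 and 601 CPM and at least 10783-fold lower. The kynurenine-pathway enzyme KYNU was at 283, 321 and 315 CPM and at least 5077-fold lower. STEAP4, a metalloreductase, had a single count in SKOV3/DDP_PAE against 366, 590.3 and 419 CPM in SKOV3_PAE, a ratio of SKOV3_PAE to SKOV3/DDP_PAE of 22904 (95% counting interval 4110.4 to 904720). IL6, G0S2, WFDC2, RAB31, EFEMP1, ELOVL5, HERC5 and MDFIC completed the 12 genes with the largest fold change downward. Each of these 8 was without a count in SKOV3/DDP_PAE and at a mean of at least 10 CPM in SKOV3_PAE.

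Counted by the difference in CPM instead of the fold, the genes that rose most in SKOV3/DDP_PAE were GDF15, a stress-induced cytokine, CDKN1A, the cadherin FAT1, the neuropeptide precursor VGF, LGALS3BP and MYO1D. GDF15 was at 39.04, 13.4 and 17.3 CPM in SKOV3_PAE and 2209, 2375 and 1168 CPM in SKOV3/DDP_PAE. VGF rose from 6.39, 2.95 and 3.05 to 1289, 1399 and 915 CPM (log2 fold change 8.19 ± 0.41 SE, n = 3 a group, adjusted p = 2.06e-08, edgeR). FAT1 rose by a log2 fold change of 4.37, with 1 SKOV3/DDP_PAE library, replicate 3, well above the other two (1157, 1253 and 2615 CPM). The genes that fell most were AKR1B1, ACTG1, FTH1, TIMP1, TPM4 and KRT17. AKR1B1, the aldose reductase, was among the most abundant messages of SKOV3_PAE at 3518, 7530.1 and 3727 CPM and was at 15.3, 16.3 and 11.5 CPM in SKOV3/DDP_PAE (log2 fold change −8.42 ± 0.44 SE, adjusted p = 2.48e-08). FTH1, the ferritin heavy chain that stores iron, was at 4486, 3876 and 1668 CPM in SKOV3_PAE and 737, 585 and 594 CPM in SKOV3/DDP_PAE, and ACTG1, cytoskeletal gamma actin, at 4714, 5996 and 4619 CPM in SKOV3_PAE and 1291, 1628 and 854 CPM in SKOV3/DDP_PAE. Only genes whose groups did not overlap were ranked here, so the lack of overlap of these genes was set by the choice.

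Of 34 listed genes of intestinal epithelium, 18 were too low to be tested. Of the 16 tested, 11 were higher in SKOV3/DDP_PAE and 1 was lower, with a median log2 fold change of 3.79 beside −0.01 for all genes. Genes such as CDX2 and CDH17 passed the filter only through the group where they are high. The median was 2.22 over 33 listed genes with no filter, and with 10 counts or more asked of all 6 libraries 5 genes were left, 3 of them called, with a median of 2.30. CDX2, the transcription factor that specifies intestinal epithelium, was at 0.0710, 0 and 0.0649 CPM in SKOV3_PAE and 48.1, 44.97 and 44.3 CPM in SKOV3/DDP_PAE. It had 2 counts in SKOV3_PAE, a ratio of SKOV3/DDP_PAE to SKOV3_PAE of 1071 (95% counting interval 296 to 8850.0). CDH17, the liver-intestine cadherin, was at 0.0710, 0 and 0 CPM in SKOV3_PAE and 135, 147 and 225 CPM in SKOV3/DDP_PAE, a ratio of 7827 (95% counting interval 1404 to 309205) on a single count. HNF4A, a nuclear receptor of gut and liver, was at 0.0710, 0.0627 and 0.130 CPM in SKOV3_PAE and 27.2, 20.4 and 26.7 CPM in SKOV3/DDP_PAE. SKOV3_PAE held almost none of the 3, which were named for their large differences. Their groups did not overlap, as for 61.8% of all genes tested. The membrane mucin MUC13 was at 141, 146 and 169 CPM against 3.12, 1.57 and 0.519 CPM. VIL1 and CEACAM6 also rose, but from 1 and 3 counts to levels of only 2.03, 2.20 and 0.877 and 1.97, 1.52 and 2.07 CPM. GUCY2C, the intestinal receptor for guanylin, went the other way, at 0.994, 0.690 and 2.27 CPM in SKOV3_PAE and 0.0580, 0.226 and 0.0626 CPM in SKOV3/DDP_PAE. KLF5, SPINK1, LGR5 and EPHB2 did not pass the test. Of genes of the differentiated gut cell, TFF3 and SLC26A3 were below the filter, FABP1 had 1 count over the 6 libraries, and MUC2 and KRT20 had no more than 2 counts in a library. LGALS4, an intestinal galectin, had 220, 9 and 200 counts in the SKOV3/DDP_PAE libraries and 3, 7 and 2 in SKOV3_PAE, and was below the filter.

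**Figure D1:**
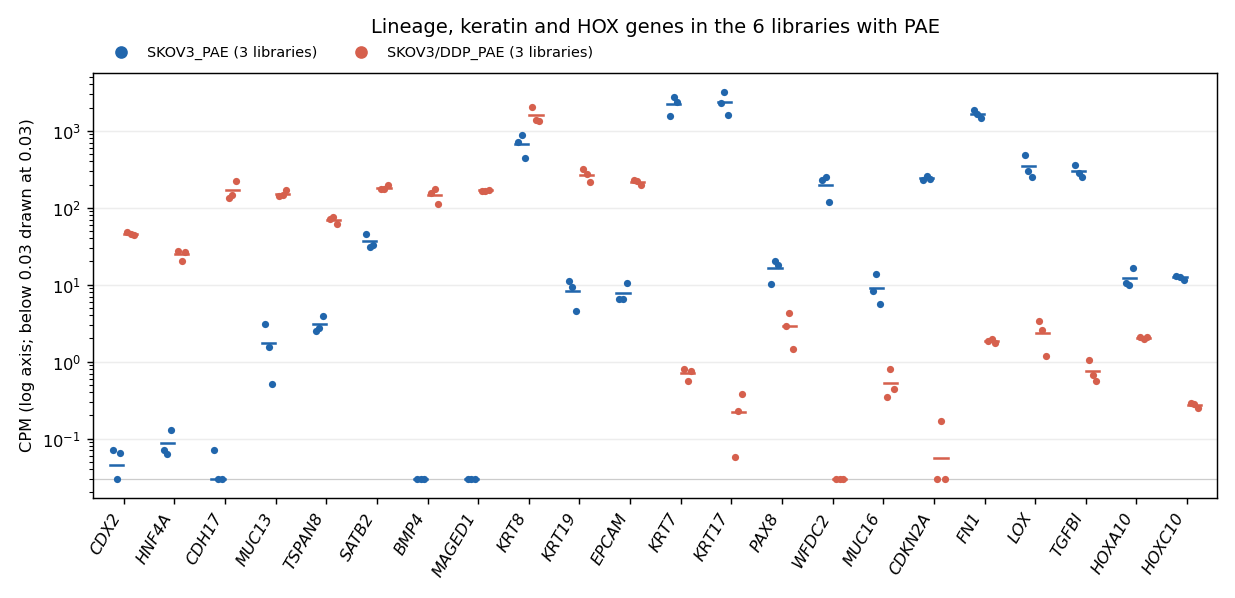
Levels of lineage, keratin, matrix and HOX genes in each of the 6 libraries with PAE, in TMM-normalized CPM on a log axis, with values below 0.03 drawn at 0.03; points are libraries and lines are group means. CDX2, HNF4A and CDH17 are near the floor in all 3 SKOV3_PAE libraries, and KRT7, KRT17, WFDC2 and CDKN2A are near it in SKOV3/DDP_PAE.

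Markers of the ovary and the Müllerian duct were split. Of 21 listed, 14 were tested, 6 were higher and 6 lower, with a median log2 fold change of 0.46. PAX8, a transcription factor of Müllerian epithelium, was at 10.2, 20.4 and 18.2 CPM in SKOV3_PAE and 2.90, 4.34 and 1.44 CPM in SKOV3/DDP_PAE (log2 fold change −2.48 ± 0.43 SE, adjusted p = 0.000408). WFDC2, the serum marker HE4, was at 227, 251 and 117 CPM in SKOV3_PAE and at least 3272-fold lower. FOXL2, a factor of granulosa cells, was at 36.1, 31.6 and 24.5 CPM and at least 504-fold lower, and the CA125 antigen gene MUC16 was at 8.16, 13.5 and 5.64 CPM in SKOV3_PAE and 0.348, 0.790 and 0.438 CPM in SKOV3/DDP_PAE. All 4 were thus lower in every SKOV3/DDP_PAE library than in any SKOV3_PAE library, beside 61.8% of all genes without overlap in either direction. In the other direction went FOLR1, the folate receptor alpha, at 0.142, 0.0627 and 0.195 CPM in SKOV3_PAE and 27.97, 26.5 and 19.2 CPM in SKOV3/DDP_PAE, and MSLN, mesothelin, at 51.4, 84.9 and 24.8 CPM in SKOV3_PAE and 431, 334 and 283 CPM in SKOV3/DDP_PAE. WT1 and SOX17, further factors of this lineage, were below the filter, with at most 3 counts of WT1 in a library and none of SOX17.

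HOX genes, which keep the position a cell had along the body axis, were lower in SKOV3/DDP_PAE as a group. Of 35 tested, 26 were lower and 4 higher, with a median log2 fold change of −3.30, which did not change when the 4 genes with no count in SKOV3/DDP_PAE were set at their bounds. HOXC13 was at 46.4, 25.5 and 26.1 CPM in SKOV3_PAE and at least 531-fold lower. HOXD10 and HOXD11 were at 40.8, 38.7 and 49.6 and 34, 30.7 and 20.04 CPM in SKOV3_PAE, with 3 counts and 1 count in SKOV3/DDP_PAE. HOXA5, at 13.1, 6.71 and 10.4 CPM, was at least 165-fold lower. The 4 that rose were HOXB3, HOXB8, HOXB9 and HOXD3, so 3 of them lie in the HOXB cluster. HOXB9 was at 50.2, 28.6 and 36.6 CPM in SKOV3_PAE and 128, 144 and 107 CPM in SKOV3/DDP_PAE. For HOXD1 the call rested on SKOV3_PAE replicate 1 (38.3, 1.44 and 0.389 CPM), and it was not called without that library or without SKOV3/DDP_PAE replicate 3. When only genes with 10 counts or more in all 6 libraries were tested, 14 HOX genes were left, 9 were called and the median was −0.33.

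Keratins, the intermediate filaments of epithelium, differed in both directions. KRT7 was at 1538, 2704 and 2359.9 CPM in SKOV3_PAE and 0.812, 0.564 and 0.751 CPM in SKOV3/DDP_PAE, and KRT17 at 2315, 3165 and 1607 CPM in SKOV3_PAE and 0.0580, 0.226 and 0.376 CPM in SKOV3/DDP_PAE, so both went from some of the highest messages in SKOV3_PAE to near 0. KRT19 rose from 11.3, 9.28 and 4.54 to 318, 275 and 215 CPM, and KRT8 from 720.1, 876 and 439.8 to 2027, 1384 and 1349 CPM. KRT18, the partner of KRT8, was at 822, 610.2 and 354 CPM in SKOV3_PAE and 1219.9, 1099.5 and 678 CPM in SKOV3/DDP_PAE, overlapped and did not pass (adjusted p = 0.0681). Of 13 keratins tested, 4 were higher and 6 lower, with a median of −0.64. Some keratin genes share long stretches of sequence, so reads of KRT14, KRT16 and KRT17 may be assigned to the wrong copy.

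Genes of epithelial junctions and their regulators were mostly higher and genes of the mesenchymal state mostly lower in SKOV3/DDP_PAE. Of 16 epithelial genes tested, 9 rose and 2, ESRP2 and OVOL2, fell, with a median of 1.71. EPCAM was at 6.53, 6.46 and 10.4 CPM in SKOV3_PAE and 228, 224 and 195 CPM in SKOV3/DDP_PAE, and the tight-junction gene CLDN4 at 10.8, 15.4 and 2.85 CPM in SKOV3_PAE and 143, 119.8 and 119 CPM in SKOV3/DDP_PAE. CDH1, E-cadherin, was at 82.6, 91 and 24.8 CPM in SKOV3_PAE and 165, 133 and 224 CPM in SKOV3/DDP_PAE (log2 fold change 1.396, adjusted p = 0.0101), and its lowest SKOV3_PAE library was replicate 3. Of 26 mesenchymal genes tested, 17 were lower and 7 higher, with a median of −2.88. Fibronectin, FN1, was at 1843, 1649 and 1446 CPM in SKOV3_PAE and 1.86, 1.97 and 1.75 CPM in SKOV3/DDP_PAE, and TGFBI at 359.7, 285 and 252 CPM in SKOV3_PAE and 1.04, 0.677 and 0.564 CPM in SKOV3/DDP_PAE. ZEB2 and TWIST1, transcription factors that repress epithelial genes, had no count in SKOV3/DDP_PAE and were at least 238-fold and 126-fold lower. COL6A2, a collagen VI chain, was lower (−10.85), while its partner chain COL6A1 rose by 1.46. The matrix gene SPARC, with no count in SKOV3_PAE, was at least 52.3-fold higher, to only 2.79, 4.91 and 2.25 CPM. VIM, vimentin, was low in both lines, at 0.568, 0.878 and 1.17 CPM in SKOV3_PAE and 2.73, 3.05 and 1.25 CPM in SKOV3/DDP_PAE, and its call was lost in 4 of the 6 fits that left out a library. SNAI1 was lower (−3.49), with SKOV3_PAE libraries spread widely at 420.1, 86.4 and 20.5 CPM.

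**Figure D2:**
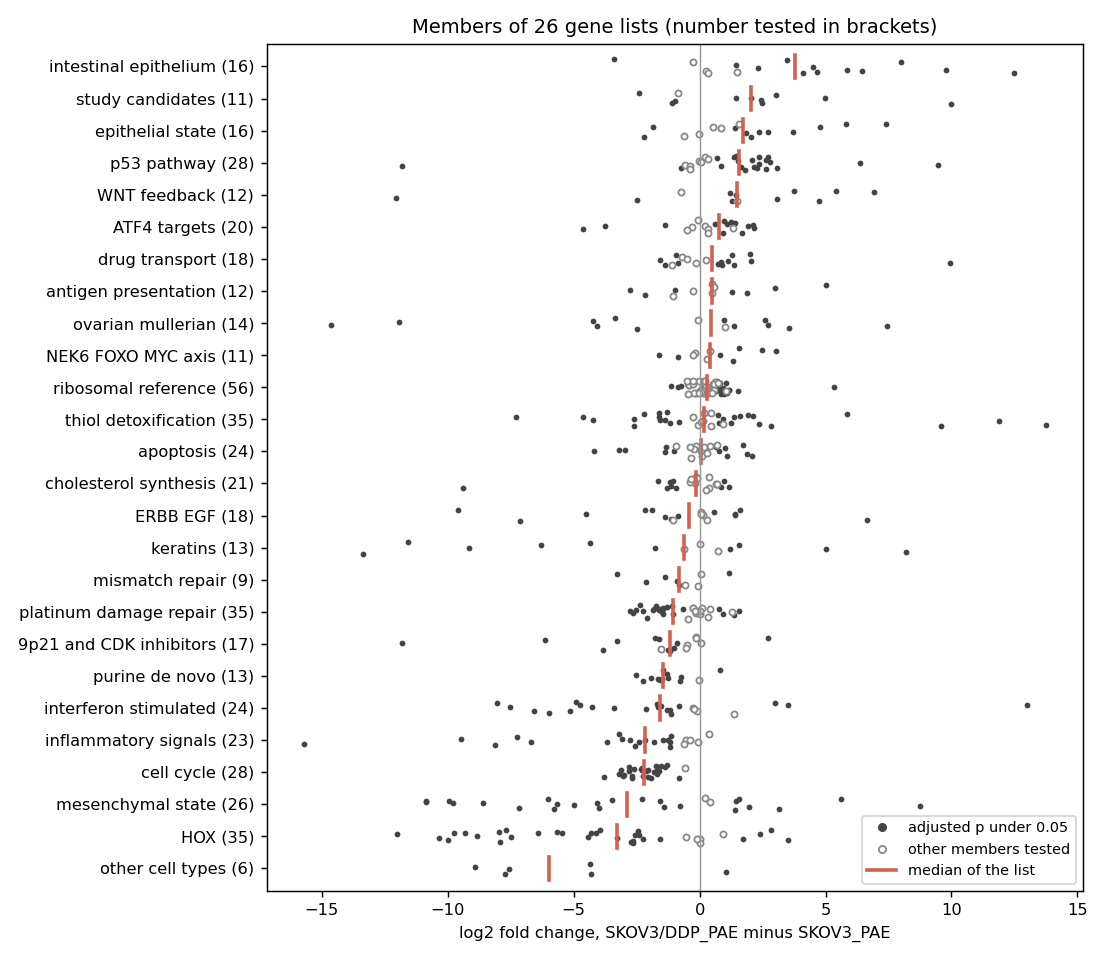
Log2 fold change (SKOV3/DDP_PAE minus SKOV3_PAE) of every tested member of 26 gene lists, 1 point a gene, filled where the adjusted p is under 0.05, with the median of each list as a bar; numbers tested are in brackets. The medians of the intestinal, p53 and WNT lists lie to the right of 0, and those of the cell cycle, inflammatory, mesenchymal and HOX lists to the left.

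Ligands of the EGF receptor family differed in both directions. EREG, epiregulin, was at 512, 633 and 408 CPM in SKOV3_PAE and 0.986, 0.564 and 0.438 CPM in SKOV3/DDP_PAE, and NRG1, neuregulin, at 55.7, 46.9 and 31.1 CPM in SKOV3_PAE and 1.80, 2.54 and 1.44 CPM in SKOV3/DDP_PAE. EGF itself was at 0.142, 0.188 and 0.0649 CPM in SKOV3_PAE and 13.1, 12.5 and 16.7 CPM in SKOV3/DDP_PAE, and TGFA and AREG were higher by log2 fold changes of 1.42 and 1.41. EPGN, BTC and NRG2 were lower, so of 10 ligands 3 were higher and 5 lower. Of the receptors, ERBB3 was higher (1.60), ERBB2 lower (−1.13 ± 0.27 SE, adjusted p = 0.00369), and EGFR was at 229, 242 and 204 CPM in SKOV3_PAE and 202, 219 and 328 CPM in SKOV3/DDP_PAE and did not pass. GRB7, next to ERBB2 on chromosome 17, was lower (−1.38), and MIEN1 in the same neighbourhood did not pass (0.06, adjusted p = 0.868). HBEGF did not pass, with 143, 19.8 and 8.95 CPM in SKOV3_PAE and replicate 1 far above the others.

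Feedback genes of WNT signalling, which cells induce when beta-catenin is active, were mostly higher in SKOV3/DDP_PAE. Of 12 tested, 8 rose and 2 fell, with a median of 1.48. AXIN2, a scaffold of the complex that degrades beta-catenin, was at 2.91, 1.38 and 0.324 CPM in SKOV3_PAE and 60.6, 77.8 and 57.2 CPM in SKOV3/DDP_PAE. RNF43, which removes WNT receptors from the surface, was at 4.40, 4.14 and 3.50 CPM in SKOV3_PAE and 45.96, 46.5 and 68.3 CPM in SKOV3/DDP_PAE, and LEF1, a nuclear partner of beta-catenin, at 1.42, 0.815 and 0.584 CPM in SKOV3_PAE and 23.6, 27.03 and 25.1 CPM in SKOV3/DDP_PAE. The groups did not overlap for any of the 3, which were named for their large differences, as for 61.8% of all genes tested. NKD1 and APCDD1 also rose. The secreted inhibitors DKK1 and NOTUM were the 2 that fell, and DKK1 was at 51.5, 177 and 121 CPM in SKOV3_PAE against a single count in SKOV3/DDP_PAE.

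Genes of the p53 pathway were higher in SKOV3/DDP_PAE as a group. Of 28 tested, 19 rose and 2 fell, with a median of 1.57, and of the 24 target genes 17 rose. CDKN1A, the inhibitor p21, was at 427, 279 and 162 CPM in SKOV3_PAE and 2133, 1477 and 2124 CPM in SKOV3/DDP_PAE (log2 fold change 2.72 ± 0.35 SE, adjusted p = 3.70e-05). MDM2, which degrades p53 and is itself a target, was at 95.5, 84.04 and 97.3 CPM in SKOV3_PAE and 338, 472 and 426 CPM in SKOV3/DDP_PAE. CCNG1, another target, was at 0.355, 0.188 and 0.324 CPM in SKOV3_PAE and 193, 246 and 192 CPM in SKOV3/DDP_PAE, so SKOV3_PAE held almost none of it. SESN1, a stress-induced sestrin, was higher by 2.81 and TP53INP1 by 3.07. The death-related targets did not move as a block. BBC3 was higher (2.09), while BAX at 63.7, 96.6 and 55.3 CPM in SKOV3_PAE and 86.9, 84.5 and 55.3 CPM in SKOV3/DDP_PAE, FAS and PMAIP1 did not pass (adjusted p = 0.836, 0.939 and 0.391). CDKN2A and TP53I11 were the 2 members that fell, and the call of TP53I11 was lost in 5 of the 6 fits that left out a library.

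Of 17 tested genes of the cyclin-dependent kinase inhibitors, their neighbours at 9p21 and the RB axis, CDKN1A was the only one that rose, and 10 fell, with a median of −1.16. The ratio of SKOV3_PAE to SKOV3/DDP_PAE for CDKN2A was 3961 (95% counting interval 1355 to 19212). Its neighbours CDKN2B and MTAP were lower but present (−1.76 and −1.03), at 15.2, 16.3 and 12.1 and 31.2, 37.01 and 36.6 CPM in SKOV3/DDP_PAE, while DMRTA1 had a single count there. CDKN2C, the inhibitor p18, was at 77.9, 88.2 and 66.7 CPM in SKOV3_PAE and 5.98, 5.59 and 4.88 CPM in SKOV3/DDP_PAE. E2F1, the factor that RB holds back and that drives replication genes, was at 112, 148 and 146 CPM in SKOV3_PAE and 13, 11.6 and 16.97 CPM in SKOV3/DDP_PAE. RB1, CCND1 and CDKN1B did not pass.

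Every replication and mitosis gene that passed the test was lower in SKOV3/DDP_PAE. Of 28 cell cycle genes, 27 were lower and none was higher, with a median of −2.19, beside 29.0% lower among all genes. PCNA was the exception, at 178, 166 and 278 CPM in SKOV3_PAE and 148, 157 and 113 CPM in SKOV3/DDP_PAE, without overlap but with an adjusted p of 0.0685. MCM2, a subunit of the replicative helicase, was at 127, 156 and 156 CPM in SKOV3_PAE and 7.89, 5.19 and 18.5 CPM in SKOV3/DDP_PAE (log2 fold change −3.80 ± 0.40 SE, adjusted p = 8.56e-06). CDT1, which loads the helicase, was at 199, 227 and 183 CPM in SKOV3_PAE and 27.5, 17.9 and 20.2 CPM in SKOV3/DDP_PAE, and RRM2, a subunit of ribonucleotide reductase, at 433, 365 and 419 CPM in SKOV3_PAE and 46.7, 46.4 and 53.5 CPM in SKOV3/DDP_PAE. TOP2A, the topoisomerase of condensing chromosomes, was at 451, 563 and 783 CPM in SKOV3_PAE and 67.7, 58.8 and 97.4 CPM in SKOV3/DDP_PAE. CDK1, the kinase that starts mitosis, was at 151, 166 and 241 CPM in SKOV3_PAE and 33.3, 36 and 40.5 CPM in SKOV3/DDP_PAE and is shown by its promoter below. RRM2B, the p53-induced subunit of the same reductase as RRM2, went the other way, from 56.7, 45.3 and 63.9 to 267, 321 and 430.2 CPM. The smallest of the 27 differences was that of CDC6 (−0.83), which was not called without SKOV3_PAE replicate 1 or without SKOV3/DDP_PAE replicate 2.

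Promoters were read from RefSeq on GRCh38.p14, from 250 bases before to 50 bases after each gene's start, and 11543 of the genes tested had one. The CCAAT box was searched as CCAAT and the CHR element, a repressor site of cell cycle genes, as TTTGAA, on both strands. CCAAT was in 42.6% of all promoters and in 20 of the 25 cell cycle promoters available (80%). TTTGAA was in 13.8% of all and in 10 of the 25 (40%). The promoter of CDK1 at chr10:60778228-60778527, plus strand, is shown because it holds 2 CCAAT boxes and 3 CHR matches, which are in capitals (as ATTGG and TTCAAA where they read on the other strand).
CDK1: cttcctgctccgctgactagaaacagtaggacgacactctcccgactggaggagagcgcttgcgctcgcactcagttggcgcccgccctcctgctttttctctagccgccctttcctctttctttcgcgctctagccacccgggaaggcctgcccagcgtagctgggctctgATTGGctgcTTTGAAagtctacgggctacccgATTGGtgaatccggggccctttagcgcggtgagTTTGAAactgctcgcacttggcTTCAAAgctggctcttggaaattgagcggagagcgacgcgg
A match is a description of the letters, not evidence that a factor is bound.

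Repair genes differed by pathway. Of 11 genes of homologous recombination, 9 were lower and none was higher, with a median of −1.50. BRCA1 was at 75.2, 65.4 and 89.2 CPM in SKOV3_PAE and 23.5, 19.1 and 40.8 CPM in SKOV3/DDP_PAE, and BRIP1, the helicase that works with BRCA1, at 52.5, 39.3 and 47.1 CPM in SKOV3_PAE and 9.23, 5.76 and 8.89 CPM in SKOV3/DDP_PAE. Of 14 crosslink repair and tolerance genes, 9 were lower and 3 higher. FANCL, the ubiquitin ligase of the Fanconi complex, was at 22.9, 25.4 and 24.3 CPM in SKOV3_PAE and 3.95, 3.89 and 2.69 CPM in SKOV3/DDP_PAE, and FANCA and FANCD2 were lower (−2.64 and −2.38). The 3 that rose were POLH, the polymerase that bypasses platinum adducts (24.5, 28.03 and 22.4 CPM in SKOV3_PAE and 73.8, 76.3 and 71.95 CPM in SKOV3/DDP_PAE), REV3L (0.76) and FANCF (0.91). The last 2 calls were lost without SKOV3_PAE replicate 2, among other libraries. Nucleotide excision repair, which removes platinum adducts, had 2 calls. Of its 10 genes XPC rose (1.38), ERCC2 fell (−1.45), and ERCC1 at 36.8, 58.2 and 43.7 CPM in SKOV3_PAE and 67.7, 71.9 and 43.1 CPM in SKOV3/DDP_PAE did not pass (adjusted p = 0.205). Mismatch repair had 5 of 9 genes lower and 1, PMS2, higher. MSH6, which reads base mismatches, was at 164, 184 and 192 CPM in SKOV3_PAE and 18.6, 14.8 and 22.2 CPM in SKOV3/DDP_PAE.

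De novo purine synthesis starts from PRPP, made by PRPS1 and PRPS2, builds IMP in 6 enzymes and then makes AMP and GMP. Of its 13 genes, 11 were lower in SKOV3/DDP_PAE, 1 was higher and 1 did not pass, with a median of −1.45. Both PRPP synthetases were lower, PRPS1 at 98.3, 101 and 111 CPM in SKOV3_PAE and 25.3, 20.5 and 35.1 CPM in SKOV3/DDP_PAE and PRPS2 at 80.4, 86.6 and 102 CPM in SKOV3_PAE and 29.2, 31.6 and 29.4 CPM in SKOV3/DDP_PAE. Among the enzymes that make IMP, GART, PFAS, PAICS and ADSL were lower. GART was at 161, 168 and 172 CPM in SKOV3_PAE and 47.2, 38.2 and 73.1 CPM in SKOV3/DDP_PAE and PAICS at 328, 289 and 364 CPM in SKOV3_PAE and 126, 107 and 112 CPM in SKOV3/DDP_PAE (log2 fold change −1.51 ± 0.21 SE, adjusted p = 7.23e-05). PPAT, which catalyses the committed first step, was higher, at 44.6, 30.04 and 49.04 CPM in SKOV3_PAE and 60.5, 60.7 and 97.6 CPM in SKOV3/DDP_PAE (log2 fold change 0.82 ± 0.26 SE, adjusted p = 0.0184). Its call was lost without SKOV3_PAE replicate 2 or without SKOV3/DDP_PAE replicate 3. ATIC, which makes the last 2 steps, was at 76.03, 91.9 and 106 CPM in SKOV3_PAE and 97.7, 77.8 and 94.7 CPM in SKOV3/DDP_PAE, overlapped and did not pass. All 5 enzymes from IMP to AMP and GMP were lower, from IMPDH2 (−0.75) to ADSS1 (−2.54).

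PAICS and PPAT are shown because they are neighbours read in opposite directions from 1 stretch of chromosome 4 and yet differed between the lines in opposite directions. Their starts are 137 bases apart, and their promoter windows share 236 bases, identical on opposite strands. Both windows hold the same E-box, searched as CACGTG and shown in capitals, the letters that MYC and MAX are known to bind. It was in 12.2% of all promoters and in 3 of the 11 purine promoters available (27.3%). PAICS and PPAT were counted separately in this share, so their common site enters it more than once. The windows are chr4:56435502-56435801, plus strand, and chr4:56435566-56435865, minus strand.
PAICS: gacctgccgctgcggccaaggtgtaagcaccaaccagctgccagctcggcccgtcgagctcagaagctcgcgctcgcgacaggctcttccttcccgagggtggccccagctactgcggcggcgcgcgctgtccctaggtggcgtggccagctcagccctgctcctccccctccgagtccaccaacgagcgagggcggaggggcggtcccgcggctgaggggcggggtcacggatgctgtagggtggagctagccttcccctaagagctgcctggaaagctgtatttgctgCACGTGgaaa
PPAT: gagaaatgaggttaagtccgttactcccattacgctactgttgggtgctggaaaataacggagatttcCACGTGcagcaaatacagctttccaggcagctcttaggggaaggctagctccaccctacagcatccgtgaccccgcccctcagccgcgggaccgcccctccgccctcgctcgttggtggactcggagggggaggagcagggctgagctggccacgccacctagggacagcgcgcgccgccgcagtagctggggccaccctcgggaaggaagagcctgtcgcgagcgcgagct

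NEK6, FOXO3, MYC and the MYC ligase gene FBXW7 were reported in full because the study examined them. NEK6, a mitotic kinase, was at 6.74, 6.46 and 3.76 CPM in SKOV3_PAE and 45.6, 39.5 and 55.2 CPM in SKOV3/DDP_PAE (log2 fold change 3.05 ± 0.29 SE, adjusted p = 3.25e-06). MYC was at 134, 77.6 and 49.2 CPM in SKOV3_PAE and 22.98, 30.9 and 31.8 CPM in SKOV3/DDP_PAE (log2 fold change −1.61 ± 0.32 SE, adjusted p = 0.00118). Both were without overlap between the lines, as were 61.8% of all genes tested, NEK6 higher and MYC lower in SKOV3/DDP_PAE. FOXO3 was at 73.97, 55 and 49.6 CPM in SKOV3_PAE and 75.03, 70.1 and 94.8 CPM in SKOV3/DDP_PAE, overlapped and did not pass (log2 fold change 0.43 ± 0.23 SE, adjusted p = 0.131). FOXO1, of the same forkhead family, was at 13.2, 8.34 and 5.90 CPM in SKOV3_PAE and 40.7, 41.7 and 70.5 CPM in SKOV3/DDP_PAE and rose by 2.48. FBXW7, which marks MYC for degradation, was at 19.9, 16.2 and 16.2 CPM in SKOV3_PAE and 44.6, 46.2 and 40.6 CPM in SKOV3/DDP_PAE and rose by 1.33. MAX, the partner of MYC, rose by 0.82, and NEK7, close to NEK6 in sequence, was lower (−0.84) with overlapping libraries and lost its call in 4 of the 6 fits that left out a library.

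The study chose its 11 candidate genes from purine metabolism genes, tumour and normal ovary data and its sequencing of SKOV3 and SKOV3/DDP in this series. Patient prognosis was the last step of that choice. The candidates are therefore not independent evidence of a direction, and had 7 higher and 3 lower. Beside NEK6 and FOXO1, the higher ones were PDE2A, a phosphodiesterase, at 2.20, 1.94 and 3.05 CPM in SKOV3_PAE and 75.3, 67.9 and 85.1 CPM in SKOV3/DDP_PAE, the calcium channel TRPM2 at 0.0710, 0 and 0 CPM in SKOV3_PAE and 36.8, 32.9 and 21.6 CPM in SKOV3/DDP_PAE, and PKD1 at 133, 154 and 99.6 CPM in SKOV3_PAE and 309, 311 and 429 CPM in SKOV3/DDP_PAE. SLC22A3, a cation transporter that can carry platinum drugs, was at 1.21, 1.19 and 1.82 CPM in SKOV3_PAE and 5.74, 7.05 and 4.63 CPM in SKOV3/DDP_PAE, and ACSM3 was at 0.284, 0.125 and 0.259 CPM in SKOV3_PAE and 1.74, 0.677 and 1.25 CPM in SKOV3/DDP_PAE. For TRPM2 the ratio on its single SKOV3_PAE count was 1434 (95% counting interval 257 to 56664). The lower ones were IGFBP4 (988, 1819 and 1039 CPM in SKOV3_PAE and 274, 208 and 248 CPM in SKOV3/DDP_PAE), RIPK4 (−1.08) and CDK5 (−0.98), the last not called without SKOV3_PAE replicate 2. RPS6KA1 was at 24.3, 32.9 and 17.1 CPM in SKOV3_PAE and 3.08, 2.37 and 35.8 CPM in SKOV3/DDP_PAE. SKOV3/DDP_PAE replicate 3 stood above all SKOV3_PAE libraries and the other two far below them, and the gene did not pass (adjusted p = 0.37).

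**Figure D3:**
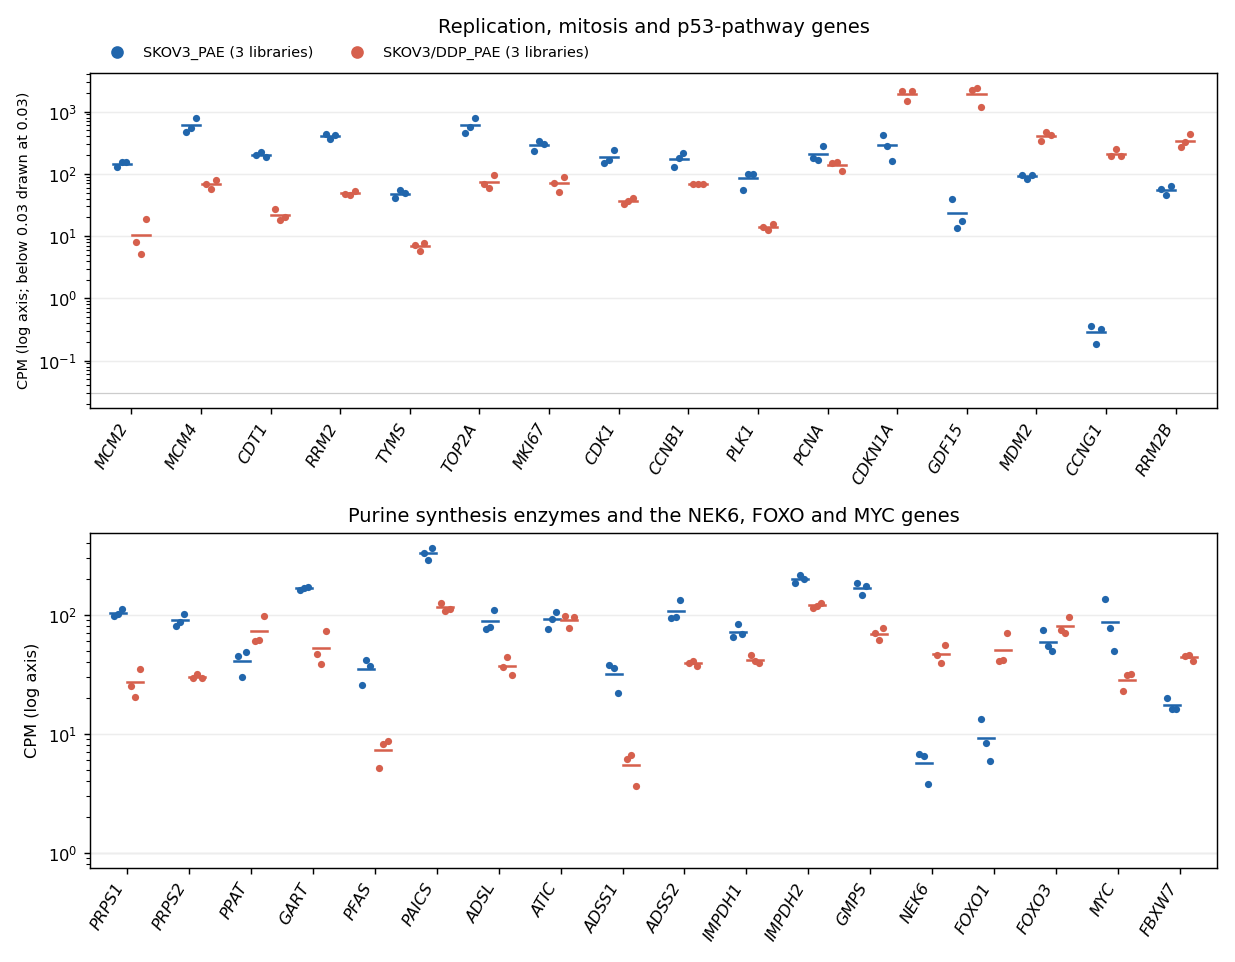
Levels in each of the 6 libraries with PAE, in TMM-normalized CPM on log axes, of replication, mitosis and p53-pathway genes (top) and of purine enzymes with NEK6, FOXO and MYC genes (bottom); points are libraries and lines are group means. MCM2 to PLK1 are lower and CDKN1A, GDF15, MDM2, CCNG1 and RRM2B higher in all 3 SKOV3/DDP_PAE libraries, and PPAT is the only purine enzyme that is higher.

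Drug transporters were mixed apart from ABCB1. ABCB1, the efflux pump P-glycoprotein, was at 0, 0.314 and 0 CPM in SKOV3_PAE and 107, 98.1 and 144 CPM in SKOV3/DDP_PAE (log2 fold change 9.95 ± 0.56 SE, adjusted p = 4.45e-08), and cisplatin is not among the drugs it is best known to export. Of 8 ABC pumps tested 5 were higher and 1 was lower, but of the 5 only ABCB1 and ABCC10 (1.28) were called without SKOV3_PAE replicate 2. ABCC4, ABCC5 and ABCG2 lost their calls. ABCC3 was the lower one (−1.36), and ABCC2, which exports glutathione conjugates, was at 4.90, 2.07 and 2.59 CPM in SKOV3_PAE and 1.16, 2.54 and 0.689 CPM in SKOV3/DDP_PAE and did not pass. Of the copper transporters that can carry cisplatin, ATP7B was higher (8.09, 13.04 and 7.85 CPM in SKOV3_PAE and 20.4, 25.1 and 29.2 CPM in SKOV3/DDP_PAE), ATP7A was lower (−0.86, not called without SKOV3/DDP_PAE replicate 1), and the importer SLC31A1 did not pass (adjusted p = 0.204). LRRC8A and LRRC8D, subunits of the volume-regulated channel through which cisplatin can enter, moved apart, by 0.85 and −0.92.

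Thiol and detoxification genes had 14 higher and 13 lower of 35 tested, with a median of 0.19. Metallothioneins other than MT1E were lower, MT2A at 1256, 2236 and 1781 CPM in SKOV3_PAE and 339, 342 and 193 CPM in SKOV3/DDP_PAE and MT1X at 223, 212 and 201 CPM in SKOV3_PAE and 47.5, 55.97 and 33.7 CPM in SKOV3/DDP_PAE. Glutathione synthesis was split, with the rate-limiting enzyme GCLC higher (1.36) and GSS, which completes the peptide, lower (−1.62). SLC7A11 and SLC3A2, the chains of the cystine importer, were higher by 0.92 and 1.26, the first not called without SKOV3_PAE replicate 2 or SKOV3/DDP_PAE replicate 3. Among glutathione transferases GSTM4 was at 0.426, 0.0627 and 0 CPM in SKOV3_PAE and 161, 118 and 96.8 CPM in SKOV3/DDP_PAE, and GSTT1, whose gene is missing in many people, was at 31.04, 29.7 and 28.4 CPM with no count in SKOV3_PAE, at least 464-fold higher. GSTP1 was at 244, 279.6 and 339 CPM in SKOV3_PAE and 298, 224 and 199 CPM in SKOV3/DDP_PAE and did not pass. NRF2 targets did not move together. NQO1 was at 3026, 2049 and 2689 CPM in SKOV3_PAE and 872, 923 and 747 CPM in SKOV3/DDP_PAE and AKR1C3 at 318, 299.8 and 259 CPM in SKOV3_PAE and 1.68, 2.48 and 1.44 CPM in SKOV3/DDP_PAE, both lower, while SRXN1 rose by 2.12. HMOX1 was at 1622, 357 and 79.8 CPM in SKOV3_PAE and was not called without replicate 1 or without SKOV3/DDP_PAE replicate 3. Members of the GSTM, AKR1C and MT1 families share reads, so the split within each family is uncertain.

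Of 24 genes of apoptosis tested, 7 were higher and 6 lower, with a median of 0.08. Of 9 anti-apoptotic genes 5 were lower and 2 higher. BIRC5, survivin, which also acts in mitosis, was at 142, 151 and 169 CPM in SKOV3_PAE and 21.3, 16.98 and 21.04 CPM in SKOV3/DDP_PAE, BIRC3 at 78.4, 101 and 52.6 CPM in SKOV3_PAE and 7.49, 7.50 and 10.5 CPM in SKOV3/DDP_PAE, and BCL2L1, BCL-XL, at 185, 229.8 and 143 CPM in SKOV3_PAE and 82.8, 69.3 and 65.8 CPM in SKOV3/DDP_PAE. MCL1 and CFLAR were the 2 that rose (0.63 and 1.09), and the first was lost without SKOV3_PAE replicate 3 and other libraries. Of 11 pro-apoptotic genes, BBC3, BIK and BAK1 rose, HRK fell and 7 did not pass. CASP9 rose by 1.01, and CASP8 did not pass.

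Interferon-stimulated and inflammatory genes were lower in SKOV3/DDP_PAE. Of 24 interferon-stimulated genes 17 were lower and 3 higher, with a median of −1.59. OASL was at 632, 875 and 613 CPM in SKOV3_PAE and 4.12, 4.91 and 2.32 CPM in SKOV3/DDP_PAE, OAS2 at 58.3, 49.6 and 52.3 CPM in SKOV3_PAE and 0.754, 0.508 and 0.376 CPM in SKOV3/DDP_PAE, and BST2, tetherin, at 319, 477 and 371 CPM in SKOV3_PAE and 9.17, 2.54 and 6.58 CPM in SKOV3/DDP_PAE. The neighbours IFIT1, IFIT2 and IFIT3 on chromosome 10 were lower, with log2 fold changes of −4.28, −4.77 and −4.89. The 3 that rose were IFI6 (35.4, 55.8 and 31.1 CPM in SKOV3_PAE and 359, 308 and 314 CPM in SKOV3/DDP_PAE), IRF7 (3.50) and IFI27. IFI27 had no count in SKOV3_PAE and was at 10.6, 34.8 and 145 CPM in SKOV3/DDP_PAE, a wide spread. ISG15 was at 379, 423 and 349 CPM in SKOV3_PAE and 479.5, 348 and 239 CPM in SKOV3/DDP_PAE, overlapped and did not pass.

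Of 23 inflammatory genes 18 were lower and none was higher, with a median of −2.16. IL6 was at 210.3, 719 and 325 CPM in SKOV3_PAE and at least 7058-fold lower, and IL1B at 51.8, 76.01 and 12.6 CPM in SKOV3_PAE and 0, 0.113 and 0.0626 CPM in SKOV3/DDP_PAE, a ratio of SKOV3_PAE to SKOV3/DDP_PAE of 776 (95% counting interval 265 to 3765). The chemokine CXCL1 was at 48.8, 99.9 and 37.9 CPM in SKOV3_PAE and 0.406, 0.226 and 0 CPM in SKOV3/DDP_PAE. In each of these SKOV3_PAE replicate 2 was highest. TNFAIP3 and NFKBIA, inhibitors that NF-kappaB itself induces, were lower (−3.06 and −2.56), as was NFKB1 (−1.81). CXCL8, next to CXCL1 on chromosome 4, was at 130.1, 275 and 54.3 CPM in SKOV3_PAE and 105, 148 and 61.9 CPM in SKOV3/DDP_PAE and did not pass, nor did TGFB1, CSF1, CSF2 and NFKB2.

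The interferon response element, searched on both strands as GAAA, any 2 bases and GAAA, was in 3.84% of all promoters and in 12 of the 17 interferon-stimulated promoters available (70.6%). The NF-kappaB site, searched as GGGA, any base and TTTCC, was in 0.728% of all and in 8 of the 17 inflammatory promoters (47.1%). The lists were drawn up for genes known to answer to these factors, so such shares describe the lists. IFIT3 (chr10:89327747-89328046, plus strand) and CXCL1 (chr4:73869143-73869442, plus strand) are shown as lower members that hold the elements, which are in capitals. In IFIT3 they read on the other strand.
IFIT3: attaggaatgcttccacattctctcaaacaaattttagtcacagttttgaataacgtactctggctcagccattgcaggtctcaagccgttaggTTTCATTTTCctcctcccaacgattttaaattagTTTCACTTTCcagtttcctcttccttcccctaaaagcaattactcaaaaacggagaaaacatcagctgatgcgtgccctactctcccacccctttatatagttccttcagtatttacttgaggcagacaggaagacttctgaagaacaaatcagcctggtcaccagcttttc
CXCL1: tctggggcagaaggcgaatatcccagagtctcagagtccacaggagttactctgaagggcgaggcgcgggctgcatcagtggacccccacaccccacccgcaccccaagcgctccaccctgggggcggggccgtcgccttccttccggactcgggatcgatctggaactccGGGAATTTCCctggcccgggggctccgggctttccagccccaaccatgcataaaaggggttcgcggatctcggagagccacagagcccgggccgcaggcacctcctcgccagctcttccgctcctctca

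Antigen presentation was split within its own complex. HLA-B was at 216, 241 and 182 CPM in SKOV3_PAE and 798, 783 and 757 CPM in SKOV3/DDP_PAE and higher, while B2M, the light chain that every class I molecule needs, was at 282, 242 and 577 CPM in SKOV3_PAE and 79.3, 91.1 and 73.4 CPM in SKOV3/DDP_PAE and lower. HLA-E was at 35.4, 1.02 and 1 CPM in SKOV3/DDP_PAE, so its call rests on replicate 1 and was lost without it. PSMB8 had no count in any of the 6 libraries, and TAP1 had at most 5 in a library. HLA genes are near-identical and vary between people, which makes their counts uncertain.

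Among ATF4 and its targets, the genes of amino acid stress, 10 of 20 were higher and 3 lower, with a median of 0.76. Without SKOV3_PAE replicate 2, 9 were called, 6 higher and 3 lower, as ATF3, ATF5, PSAT1 and SLC7A11 lost their calls, and the median was 0.61. The fit of all 12 libraries also called 6 higher and 3 lower. ATF4 was at 719.6, 540.4 and 615 CPM in SKOV3_PAE and 1461, 1408 and 1085 CPM in SKOV3/DDP_PAE, TRIB3 at 204, 64.97 and 171 CPM in SKOV3_PAE and 712, 616 and 633 CPM in SKOV3/DDP_PAE, and CHAC1 rose by 2.12. VLDLR, NUPR1 and SLC7A5 fell, and DDIT3, the factor CHOP, was at 243, 32.05 and 40.9 CPM in SKOV3_PAE and 317, 316 and 158 CPM in SKOV3/DDP_PAE and did not pass. Cholesterol synthesis had 4 higher and 7 lower of 21, with a median of −0.13, close to that of all genes. Of 56 genes of the cytosolic ribosome, which served as a reference of abundant messages, 18 were higher and 3 lower, with a median of 0.31. RPL10 rose by 1.52 and RPL13 was lower (−1.13). Ribosomal genes share reads with processed pseudogenes, so single values are uncertain.

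The differences were not spread evenly over the chromosomes. On chromosome 13, 202 of 275 genes tested were called, 174 higher and 28 lower, with a median log2 fold change of 1.13. Every 20 Mb bin of it with at least 20 genes had a median between 0.86 and 1.77. CDX2 and FOXO1 lie there, as do ATP7B and KLF5. Chromosomes 4 and 6 leaned the same way, with medians of 0.50 and 0.47. Chromosome 16 leaned down, with 133 higher, 317 lower and a median of −0.57, most in the bin from 60 to 80 Mb (−1.11, 14 higher and 91 lower of 149). Chromosome 21 had 22 higher and 84 lower, and the first 3 bins of chromosome 5 had medians of −1.06, −1.30 and −1.37 while its other bins lay between −0.32 and 0.19. Chromosome copy number was not measured, and its part in these medians was not tested.

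**Figure D4:**
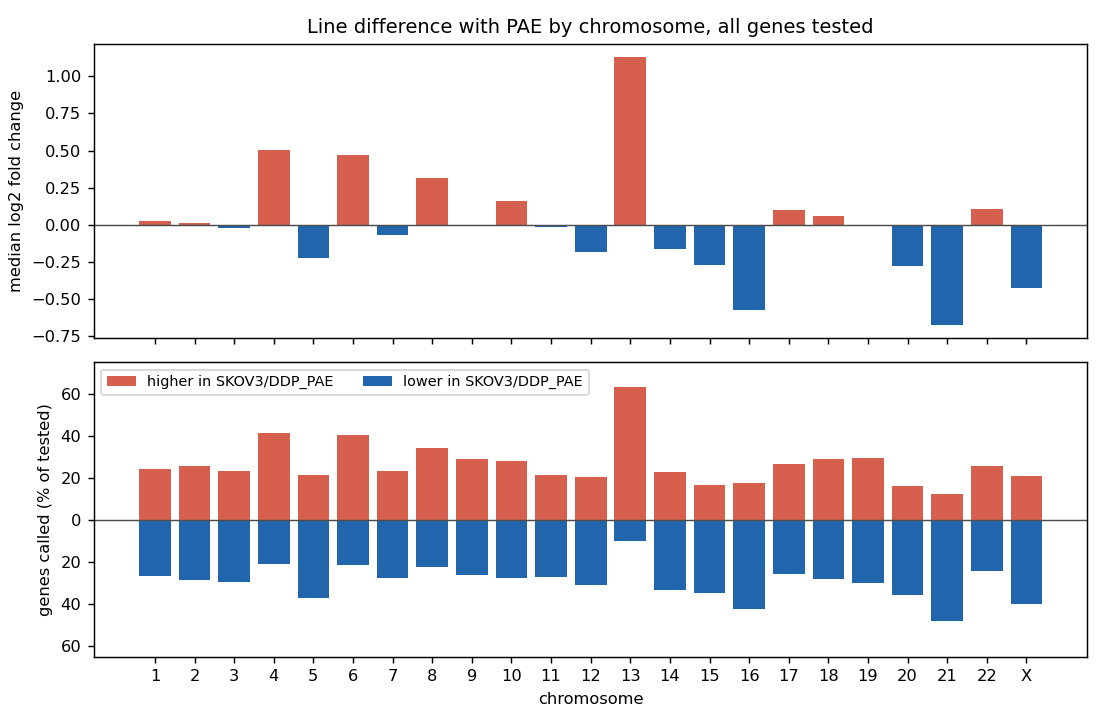
Median log2 fold change (SKOV3/DDP_PAE minus SKOV3_PAE) of the genes tested on each chromosome (top) and percentage of them called higher or lower at an adjusted p under 0.05 (bottom, lower drawn downward). Chromosome 13 has the highest median, 1.13, and chromosome 21 the lowest, −0.68.

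To ask whether the line difference depended on PAE, it was set beside the difference between the untreated lines in a fit of all 12 libraries, which covered 17133 genes. The 2 differences share no library. With PAE 9346 genes were called and without it 14010 (81.8%). Of the calls with PAE, 64.7% were called with the same sign without it, and 1865 were called with opposite signs. The difference of the differences (the interaction term) was called for 10778 genes (62.9%), with a median of −0.62. However, the untreated difference followed GC content. Across genes its Spearman correlation with GC content was −0.564, beside −0.0076 with PAE (15683 genes, which are not independent replicates). With the trend on GC content and length removed from every library, 6623 of 15683 genes had a called interaction, with a median of −0.22, and 995 of 9264 calls with PAE had the opposite sign without it.

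CDKN1A showed how the trend bears on this comparison. It was at 2238, 2461 and 2274 CPM in untreated SKOV3 and 874, 1383 and 818 CPM in untreated SKOV3/DDP, so in this fit the line difference was −1.18 without PAE and 2.79 with it. Its interaction was 3.97 (adjusted p = 2.97e-06), and 2.14 with the trend removed. With the trend removed the opposite sign was lost, and the line difference was 0.78 without PAE (adjusted p = 0.036) and 2.92 with it. Of 28 cell cycle genes, 14 were higher and 10 lower in untreated SKOV3/DDP, shares close to those of all genes. All genes had 7848 higher and 6162 lower of 17133. With the trend removed, 0 of the 28 were higher and 13 lower, beside 5789 and 5200 of 15683 genes. With PAE, in the counts as deposited, 0 were higher and 26 lower in this fit, beside 4705 and 4641 of 17133 genes. Of the 28, 15 had a called interaction with the trend removed, beside 6623 of 15683 genes in all. Of 13 purine enzymes, 7 were higher and 4 lower without PAE, again close to the shares of all genes. With the trend removed 2 were higher and 4 lower without PAE, and 9 of the 13 had a called interaction. With PAE, in the counts as deposited, 1 was higher and 11 lower. The intestinal genes were higher in SKOV3/DDP with PAE (16 of 20) and without it (15 of 20 under either treatment of the trend). NEK6 was higher by 2.97 without PAE, and its interaction did not pass (adjusted p = 0.729).

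**Figure D5:**
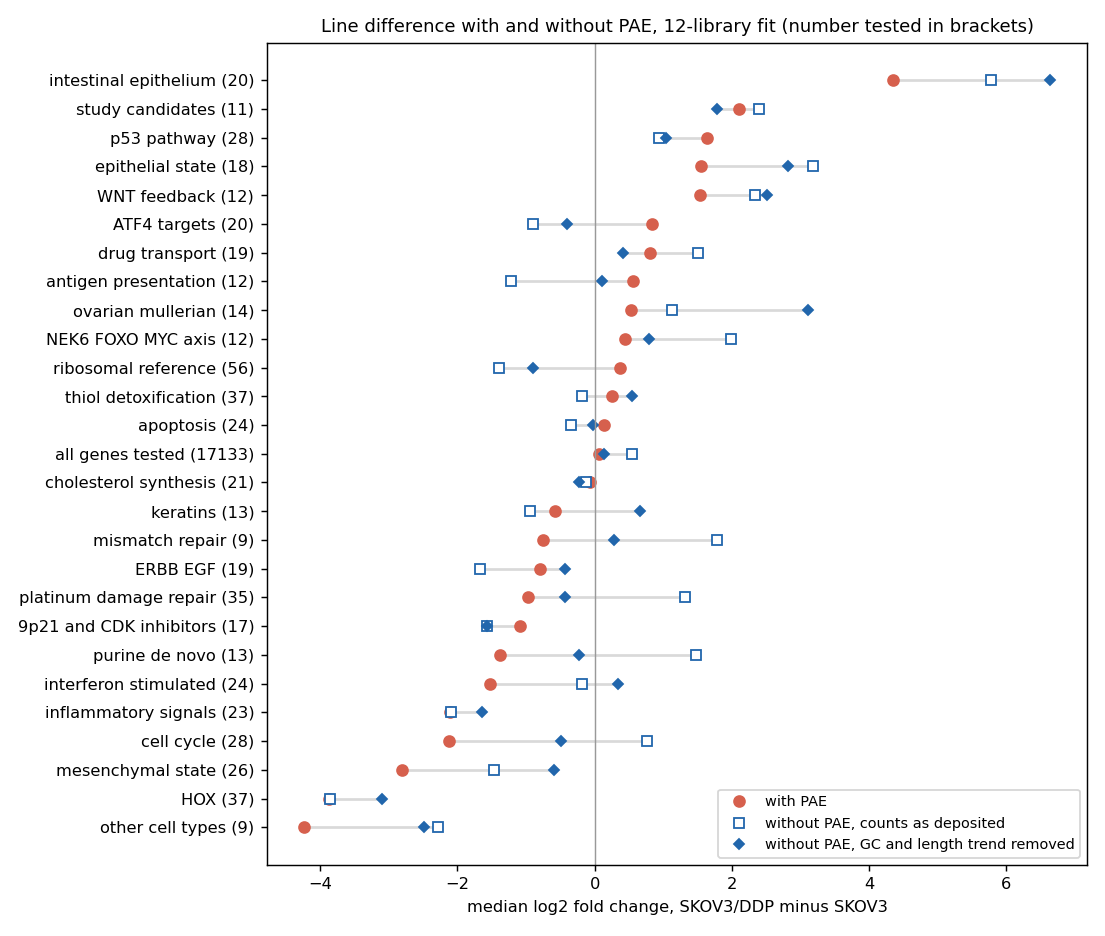
Median log2 fold change of SKOV3/DDP minus SKOV3 for each gene list in the fit of all 12 libraries, with PAE (circles), without PAE from the counts as deposited (open squares) and without PAE after removal of the GC and length trend (diamonds). The cell cycle list is at −2.12 with PAE and −0.49 without it after removal, and the intestinal list is above 4 in all 3 settings.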

How the data were processed

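The authors deposited raw whole-number counts per gene, 1 table a library, for 46350 named genes and 869 unnamed loci (0.239% to 0.395% of counts, left out) on GRCh38. The submitters' processing notes name HISAT2 2.0.5, StringTie 1.3.3b, DESeq2 and edgeR without their roles, and the strand of counting is not given in the sources used here. Here, counts of the 6 libraries with PAE were filtered with filterByExpr, normalized by TMM and compared by the quasi-likelihood test of edgeR 4.0.16 in R 4.3.3, 2-sided, with Benjamini-Hochberg adjustment over all genes tested. Each SE was derived from the fold change and its F statistic. Floors of 3 counts and 95% counting intervals cover counting error only. GC content and length came from the reference annotation and were known for 15683 of 17133 genes of the 12-library fit.

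Named genes are the 12 protein-coding genes of each sign with the largest fold change and the 6 with the largest CPM difference, at an adjusted p under 0.05, at least 10 CPM and no overlap, the study's candidates, and up to 6 of each list. Other members were named after their values were seen. The comparison and the lists were chosen with earlier results of these data known. Alternatives were DESeq2 1.42.0, limma-voom (limma 3.58.1), library-size scaling, 2 other filters, a 12-library fit, a replicate block, GC and length offsets, protein-coding genes only, unnamed loci kept, 2 thresholds and each library left out. The fits were tested on simulated data. Some members of the lists are not reported here by name.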

Additional observations from a re-analysis of the deposited data

Results flagged for a closer look

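By the interaction term of edgeR's fit of all 12 libraries, the line difference with PAE differed from that without it for 10778 of 17133 genes (62.9%). Of the 50 genes named by rule, 21 were called. BMP4, MAGED1, KYNU and SPINK6, without a count in 1 of the lines with PAE, had interaction SEs of 4608, 957, 6440 and 2231. The fit could not resolve these genes, so a named gene that was not called is not shown to be independent of PAE. Only 6 of the 21 (CDKN1A, ACTG1, TPM4, FOXO1, PKD1 and HERC5) kept the call and the sign with the GC and length trend removed. LGALS3BP and IGFBP4 were then called with the opposite sign, at −0.73 (adjusted p = 0.0164) and −0.74 (adjusted p = 0.0349).

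In the counts as deposited, on the log2 scale, the difference with PAE minus that without it was above 0 for PKD1 (4.85), TRPM2 (4.17), CDKN1A (3.97), VGF (2.60), RIPK4 (2.49), TIMP1 (2.04), AKR1B1 (1.92), CDK5 (1.64), FTH1 (1.54), IGFBP4 (1.49) and LGALS3BP (1.34). Below 0 it was for PTGS2 (−8.05), HERC5 (−7.17), RAB31 (−4.64), ACSM3 (−3.84), TPM4 (−3.54), FOXO1 (−3.20), FAT1 (−2.25), FBXW7 (−2.01), ACTG1 (−1.67) and FOXO3 (−1.63). PTGS2, HERC5 and RAB31 had no count in SKOV3/DDP_PAE, so their sizes depend on the prior count of the fit and are no measure of the change. TPM4, a tropomyosin, changed the sign of its line difference, from 1.43 without PAE to −2.11 with it, and so did PKD1, from −3.33 to 1.51. With the trend removed these were 0.82 and −2.11 for TPM4 and −2.003 and 1.28 for PKD1. Groups of 3 libraries were not tested for outlying libraries.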

How the results depend on the processing

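Of 407 called genes that were followed, 357 kept their call and sign in every alternative run, of at most 16 a gene. DESeq2 shared 97.5% of the 8809 calls and limma-voom 97.8%, and every shared call kept its sign. Asking for 10 counts or more in each of the 6 libraries removes genes absent from a line. It left 3018 genes called lower, and 499 higher and 731 lower by the criteria of the study's methods, which gave 2604 higher and 3520 lower with no filter. The same filter moved 3 list medians across 0, to 0.00864 for keratins, 0.0534 for EGF-family genes and −0.134 for drug transport, and the number called fell by over 1.5 times in 7 of 26 lists, from 12 to 3 for intestinal, 30 to 9 for HOX, 24 to 13 for mesenchymal, 12 to 7 for Müllerian, 10 to 5 for WNT, 10 to 6 for keratin and 6 to 2 for other cell type genes. With the GC and length trend removed, 6623 interactions were called in place of 10778.

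Leaving out 1 library gave 3545 to 4204 genes called higher and 4155 to 4796 lower, 1506 to 1930 higher and 2216 to 2479 lower by the study's criteria, and 10212 to 10727 interactions. RPS18 was the 1 gene that reversed. It was not called in the main fit (1.04, adjusted p = 0.311) and was called at −1.45 without SKOV3/DDP_PAE replicate 2. The cause was not tested. Same-numbered libraries of the groups correlated at −0.0837, −0.0520 and 0.0602 in their deviations. SKOV3/DDP_PAE replicate 1 and SKOV3_PAE replicate 2 correlated at 0.233. With 3 libraries a group, these values cannot decide whether the numbers pair the libraries. With the replicate block 3983 genes were called higher and 4415 lower, and 10527 interactions.

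Each group had 3 libraries, of 14610008 to 17456185 counts each. Differences of moderate size, and not only those of low genes, were often missed in simulated data. With 200 genes changed, 19% of those changed by a log2 fold change of 1 were called, and 84.7% of those changed by 2. For the interaction the shares were 1% and 39%. The simulation changed far fewer genes than the 55.2% called here, and the Benjamini-Hochberg adjustment is stricter when few genes change. These shares are therefore not the detection rates of the real comparisons. A gene that did not pass is still not shown to be equal.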
